A study of Mus musculus with 16 samples.

Results

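Gene expression was compared in muscle labelled as red gastrocnemius, a name for the more oxidative portion of this calf muscle. The groups were female mice with a conditional muscle knockout of MyD88 (labelled Conditional MusMyD88-/-) and mice labelled Cre-Control. The comparison takes every muscle library of the series, 8 of its 16 libraries, with 4 mice per genotype. The control mice were numbered 131, 137, 138 and 11 and the knockout mice 139, 958, 960 and 29, and values below are given in that order. All 8 mice had 5 weeks of wheel running and then 8 days in a small cage that restricted movement, so no group was left active and none was sedentary throughout. The age of the mice, the promoter that drives Cre, the exons removed and whether the controls carry floxed alleles are not stated in the sources used here. The other 8 libraries, from visceral fat whose subject labels carry the same numbers, were used only to show how far a difference was limited to muscle.

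MyD88 is the adaptor that links most Toll-like receptors and the receptors of the interleukin-1 family to the IRAK kinases and TRAF6, and through them to NF-kB and inflammatory genes. Muscle fibres carry several of these receptors, and so do the macrophages and other cells that lie between the fibres. In a muscle that is used less, FoxO factors and glucocorticoids raise the ubiquitin ligases that mark muscle proteins for the proteasome, while insulin-like growth factor 1 and the coactivator PGC-1alpha act the other way.

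Muscle libraries held 15203806 to 21747345 counts, and titin (Ttn) took 21.4 to 23.9% of them. Markers of muscle were high in every library: muscle creatine kinase, Ckm, was at 10870 to 16020 CPM (counts scaled to a common library size). The fast myosin Myh4, of glycolytic fibres, was the highest of the adult myosins, at 48050 to 71310 CPM, although the label names the more oxidative portion. Myh1 was at 6275 to 9327 CPM, Myh2 at 2287 to 6120 CPM and the slow myosin Myh7 at 931 to 2108 CPM. Log2 levels of 14183 genes correlated at 0.983 to 0.990 in the 12 pairs of libraries of the same genotype and at 0.981 to 0.989 in the 16 pairs of different genotype. A ribosomal RNA gene, CT010467.1, took 27970 and 19830 CPM of total counts in control mice 131 and 11, where the other mice had 16.8 to 35.2, and the libraries of knockout mouse 960 (nerve genes) and mouse 139 (adipocyte genes) stood apart in markers of other cells given below. Ribosomal RNA genes took 0.64% of counts in knockout 139, 3.42 to 3.67% in the other knockouts and 2.19 to 5.32% in controls. The smallest chi-square over degrees of freedom between a library and another of its genotype was 8.36 to 11.0 for knockouts 958, 960 and 29. It was 38.8 for knockout 139 and 28.8 to 35.0 for controls. The labels give no litter or day, so differences of that kind cannot be told apart from genotype here. The p-values measure the spread between these 8 mice.

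With 4 mice per genotype, few genes could be called different in muscle beyond the spread between mice. Of 14183 genes tested with the quasi-likelihood test of edgeR, 2 (0.0141%) had an adjusted p under 0.05, and both fell in the knockouts. These were Tgtp1, which codes for an interferon-inducible GTPase of the immunity-related family, and 9930111J21Rik2, a gene of the same cluster on chromosome 11. An unadjusted p under 0.05 was found for 715 genes (5.04%), of which 450 (3.17%) were higher and 265 (1.87%) lower. The 2 groups did not overlap for 479 genes (3.38%), with the knockouts wholly above the controls for 253 (1.78%) and wholly below for 226 (1.59%). The median log2 fold change, knockout over control, was 0.003, and 50.8% of genes lay above 0. The lists below are read against these shares. The filter on low counts bears on the calls: with no filter, edgeR called 80 genes, 29 of them lower. Those included 5 members of the atrophy list (Trim63, Fbxo32, Foxo1, Mt1 and Mt2) and 3 glucocorticoid targets (Tsc22d3, Fkbp5 and Zbtb16), all lower. Ier2, Junb, Myh3 and Gbp9 were among the higher ones, and Gbp10 among the lower. The calls with no filter were not limited to genes of low counts, and fold changes hardly moved. Trim63 went from -0.54 (edgeR adjusted p = 0.257) to -0.53 (1.045e-05), and Junb from 0.75 (0.907) to 0.76 (6.09e-07). With the other scalings and the filter kept, edgeR called only the same 2 genes. Why the number of calls rose was not tested.

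**Figure D1:**
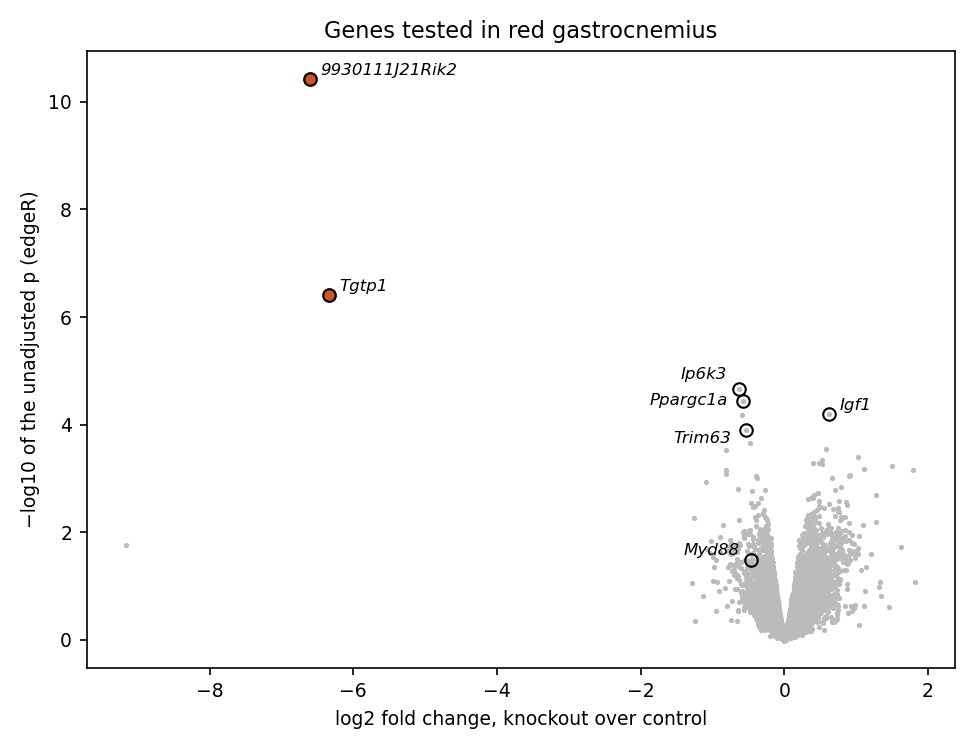
Each point is 1 of the 14183 genes tested in red gastrocnemius, with the log2 fold change (knockout over control) on the x axis and −log10 of the unadjusted edgeR p on the y axis. The filled points are the 2 genes past the adjusted threshold, 9930111J21Rik2 and Tgtp1, the open circles are other named genes, and the point near −9 is the ribosomal RNA gene CT010467.1, high in 2 controls.

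Myd88, the gene targeted (ENSMUSG00000032508, chromosome 9, 119335934 to 119341411, GRCm38), had few reads in this tissue, between 31 and 65 counts in each library. Its level was 2.17, 2.11, 3.43 and 2.95 CPM in the controls and 2.13, 2.02, 1.66 and 1.93 CPM in the knockouts. Controls 138 and 11 were above every knockout, while controls 131 and 137 lay at the level of the highest knockout, so the groups overlapped. The log2 fold change was -0.47 (SE 0.20), the edgeR adjusted p 0.949, and the exact two-sided permutation p over the 8 mice 0.0571. It ranged from -0.58 without mouse 137 to -0.32 without mouse 138. Over all libraries of a group, 181 counts in controls stood against 156 in knockouts, a ratio per total count of 1.33 (95% interval 1.07 to 1.66, counting error only). Counts cover the whole gene, and RNA of the other cells of the muscle is in them, so reads from an undeleted part and from cells without Cre cannot be told apart here from reads of an undeleted gene. In bulk tissue, fewer cells of a type and less RNA per cell cannot be told apart either.

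9930111J21Rik2 (ENSMUSG00000069892, chromosome 11, 49015874 to 49051242) was at 3.08, 4.61, 4.33 and 4.98 CPM in the controls and at 0.059, 0.046, 0 and 0.045 CPM in the knockouts. Every control held 44 to 82 counts and no knockout more than 1. The control-to-knockout ratio per total count was 110 (95% interval 37.4 to 538), and the edgeR adjusted p was 5.29e-07. Tgtp1 (ENSMUSG00000078922, chromosome 11, 48985327 to 48994172) had 26, 15, 47 and 16 counts in the controls, and 1 count in knockout mouse 139 with 0 in the other knockouts. In CPM this was 1.82, 0.854, 2.48 and 0.984 against 0.059, 0, 0 and 0, with an edgeR adjusted p of 0.00278. The counts of both genes were also near 0 in the visceral fat libraries with the same knockout numbers. Tgtp1 was at 2.24, 1.81, 1.81 and 2.81 CPM in control fat and at 0, 0.073, 0 and 0.19 CPM in knockout fat. The same held for 9930111J21Rik2, at 15.0, 17.2, 24.2 and 18.7 CPM in control fat and 0.50, 0.073, 0.65 and 0.62 CPM in knockout fat. In log2 fold change, muscle minus fat, the effects differed by -1.65 (SE 1.41) for Tgtp1 and by -1.38 (SE 0.72) for 9930111J21Rik2, with edgeR adjusted p of 0.822 and 0.692.

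Each of the 2 genes has a related copy close by that shares part of its sequence, and how the counting divided reads between copies is not stated in the sources used here. Tgtp2 transcripts hold 79.2% of the 51-base stretches of Tgtp1, and 9930111J21Rik1 transcripts hold 55.9% of those of 9930111J21Rik2. Tgtp2 was at 1.68, 1.54, 3.64 and 1.72 CPM in the controls and 3.25, 1.05, 1.41 and 3.55 CPM in the knockouts. Control 138 and knockouts 139 and 29 were high, the groups overlapped, and the log2 fold change of 0.08 (SE 0.44) turned negative under several settings, to -0.34 with quality weights. 9930111J21Rik1 was at 1.82, 1.94, 1.95 and 1.17 CPM against 2.37, 1.56, 1.26 and 2.02 CPM, with full overlap (log2 fold change 0.05, SE 0.24, and -0.12 without mice 131 and 11). The members of the 2 pairs went apart: 1 copy of each lost nearly all of its counts and the other did not pass the test.

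The promoter windows of these genes are printed because the copies can be compared there, and because interferon-inducible GTPases are known for interferon response elements in their promoters. The windows are from RefSeq on GRCm38.p6, all on the minus strand, 250 bases before the start and 50 after it, and capitals mark matches to the core of that element, GAAA and GAAA with any 2 bases between them, searched on both strands.
Tgtp1 (chr11:48992197-48992496): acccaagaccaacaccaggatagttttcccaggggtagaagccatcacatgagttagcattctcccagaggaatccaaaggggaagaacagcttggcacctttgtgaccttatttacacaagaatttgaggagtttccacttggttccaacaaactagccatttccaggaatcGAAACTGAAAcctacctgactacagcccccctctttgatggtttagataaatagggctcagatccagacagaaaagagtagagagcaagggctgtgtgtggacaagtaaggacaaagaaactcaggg
Tgtp2 (chr11:49064163-49064462): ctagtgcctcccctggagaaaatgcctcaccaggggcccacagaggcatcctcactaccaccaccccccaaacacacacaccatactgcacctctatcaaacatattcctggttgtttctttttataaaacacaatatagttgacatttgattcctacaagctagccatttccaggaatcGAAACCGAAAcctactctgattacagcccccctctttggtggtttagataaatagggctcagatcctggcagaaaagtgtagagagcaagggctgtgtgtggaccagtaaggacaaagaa
9930111J21Rik2 (chr11:49051193-49051492): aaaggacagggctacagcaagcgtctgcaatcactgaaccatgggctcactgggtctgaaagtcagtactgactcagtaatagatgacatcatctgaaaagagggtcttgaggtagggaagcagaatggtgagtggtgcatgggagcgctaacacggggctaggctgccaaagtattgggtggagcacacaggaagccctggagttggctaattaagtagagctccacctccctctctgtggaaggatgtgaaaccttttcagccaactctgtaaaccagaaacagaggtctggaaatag

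The match begins 77 bases before the start of Tgtp1 and 70 bases before that of Tgtp2, and such a match stands in 3.44% of the 32851 promoter windows of this length. From 25 bases before the match onward, the Tgtp1 and Tgtp2 windows were 92.5% identical in a global alignment, and further upstream 52.4%. The window of 9930111J21Rik2 holds no match to these letters. The sequences are those of the reference strain and not of these mice.

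**Figure D2:**
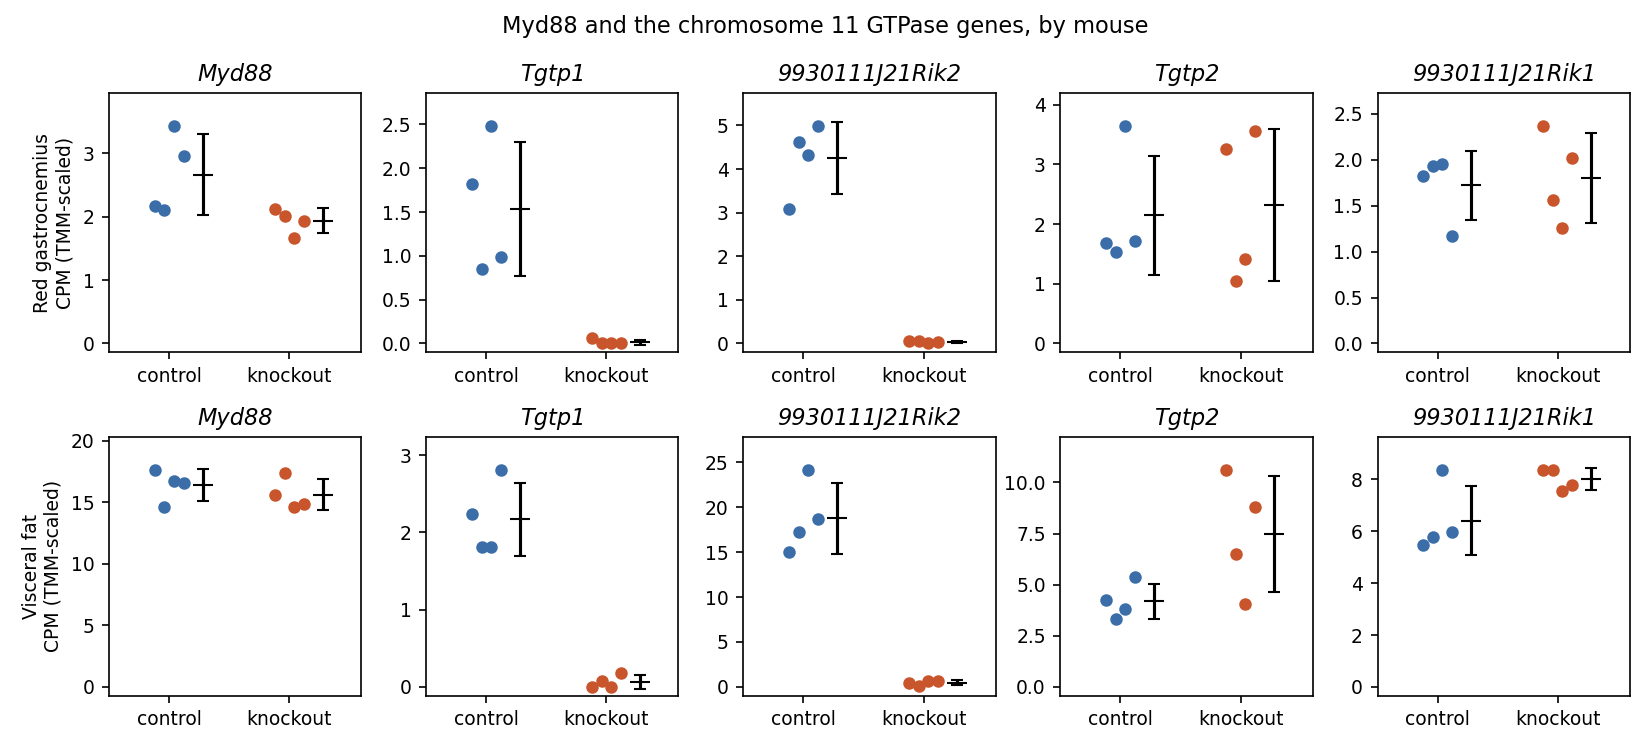
CPM (scaled with the TMM factors of each tissue) is shown for Myd88, Tgtp1, 9930111J21Rik2 and the related copies Tgtp2 and 9930111J21Rik1. The upper row is muscle and the lower row is visceral fat with the same subject numbers. Points are mice, and the bar beside them is the mean with its SD (n = 4). The knockouts sit at or near 0 for Tgtp1 and 9930111J21Rik2 in both tissues and overlap the controls for Myd88.

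No loss of this size was seen in the other genes tested nearby. Within 500 kb of the pair, 13 other genes were tested, and 0 of them had an unadjusted edgeR p under 0.05, beside 5.04% of all genes. In so few genes that count says little. Their SEs reached 0.44, for Tgtp2, and the log2 fold changes of these 13 genes lay between -0.48 and 0.66. Among them, Irgm1, a regulator of the same GTPase family 123.4 kb before Tgtp1, was at 12.8 to 14.1 CPM among controls and 12.04 to 14.8 CPM among knockouts. Ifi47, 91.3 kb after Tgtp1, was at 0.62 to 1.64 CPM and 0.76 to 2.25 CPM. The remaining immunity-related and guanylate-binding GTPase genes were mostly higher in knockouts: with the pair itself, 14 of the 18 tested lay above 0 and 4 below, with a median log2 fold change of 0.18 that was 0.01 without mouse 139. Gbp9, a guanylate-binding protein, was the only one with groups apart, at 12.3, 15.1, 17.8 and 7.88 CPM in controls and 24.7, 19.0, 18.4 and 22.4 CPM in the knockouts (log2 fold change 0.66, SE 0.22, edgeR adjusted p = 0.907). Its neighbour Gbp10 was at 3.996, 4.67, 1.16 and 2.40 CPM against 2.48, 1.28, 1.06 and 1.39 CPM, low in control 138 as well as in the knockouts.

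**Figure D3:**
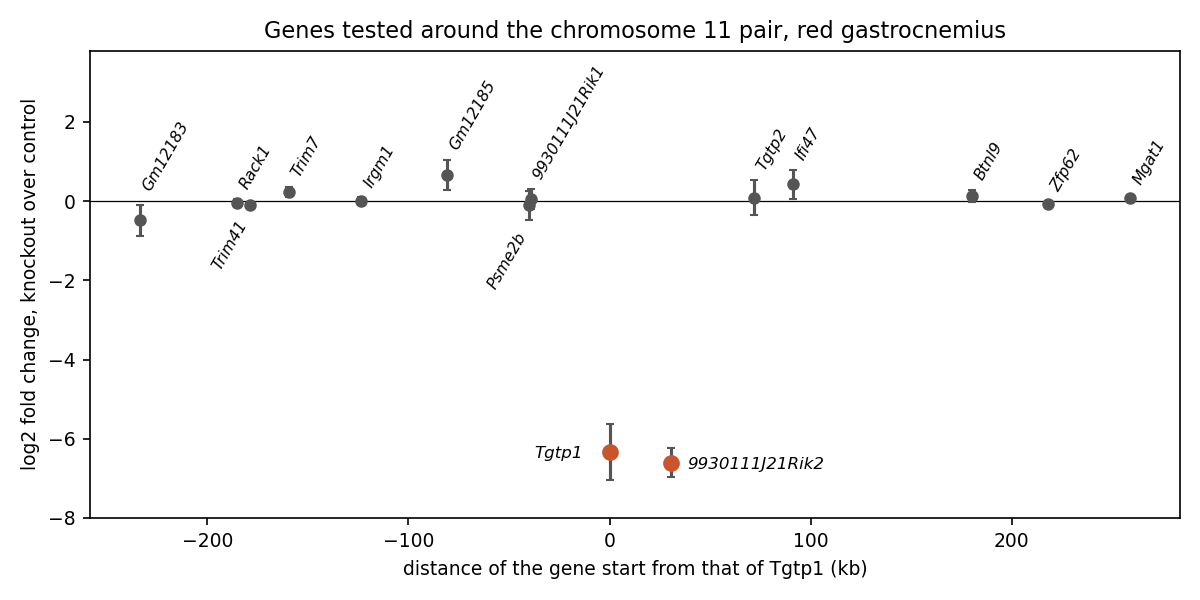
Log2 fold change with its SE (n = 4 mice per genotype) of the 15 genes tested around Tgtp1 and 9930111J21Rik2, by the distance of each gene's annotated start from that of Tgtp1 in kb. The pair lies at -6.34 and -6.61, and the 13 other genes lie between -0.48 and 0.66.

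Around Myd88 itself, 18 genes were tested within 1 Mb, and 1 of them, Myd88, had an unadjusted p under 0.05. Within 5 Mb the share was 7.41% of 81 genes, beside 5.04% of all genes, with 2 higher and 4 lower. Azi2, an adaptor of the kinase TBK1 that lies 1.27 Mb away, was at 39.0, 39.4, 35.5 and 34.1 CPM in the controls and 56.5, 49.2, 45.3 and 44.4 CPM in the knockouts, with every knockout above every control (log2 fold change 0.40, SE 0.09, edgeR adjusted p = 0.512). Osbpl10, a lipid-binding protein gene 4.10 Mb away, was at 2.03, 1.31, 1.11 and 1.78 CPM against 0.71, 0.60, 0.60 and 0.94 CPM, every knockout below (log2 fold change -1.10, SE 0.27, edgeR adjusted p = 0.648). Stt3b, a catalytic subunit of the oligosaccharyltransferase 4.03 Mb away, was at 73.8 to 89.6 CPM among controls and 66.3 to 70.5 CPM among knockouts. None of these 3 neighbours passed, though Azi2 did with no filter on low counts.

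Of 13 listed Toll-like and interleukin-1 family receptors, 9 were tested, and 8 of these were higher and 1 lower in the knockouts (median 0.36). Tlr8, an endosomal receptor for single-stranded RNA, was at 0.77, 0.68, 0.63 and 0.68 CPM in controls and 1.12, 1.28, 1.31 and 0.99 CPM in knockouts, with no overlap (log2 fold change 0.77, SE 0.24). Tlr2, a receptor for bacterial lipoproteins, was at 0.57 to 0.95 CPM against 0.91 to 1.66 CPM. Adaptors and kinases of the pathway (Tirap, Ticam1, Irak1, Irak4 and Traf6) had log2 fold changes from -0.09 to 0.07. In the whole list of Toll-like and interleukin-1 receptor signalling, 13 of 22 tested members were higher and 9 lower, with a median of 0.06 and 0 members past the adjusted threshold. Of 15 tested NF-kB factors and targets, 7 were higher and 8 lower (median -0.01, and 0.06 with total-count scaling). The inhibitor gene Nfkbia was at 24.4, 29.5, 25.6 and 33.3 CPM in controls and 17.7, 17.8, 28.5 and 24.7 CPM in knockouts, and the adhesion molecule gene Icam1 at 2.52 to 3.07 and 2.97 to 3.84 CPM. Interferon response genes outside the GTPases had 14 of 20 members higher (median 0.09, and -0.01 without mouse 29), with the factor Irf1 at 7.08, 8.03, 10.2 and 8.31 CPM against 14.6, 11.6, 9.78 and 10.0 CPM. In these 3 lists, with 22, 15 and 20 tested members, Tlr8 and Tlr3 were the only ones whose groups did not overlap. That is close to the share of all genes, 3.38%.

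The list of FoxO factors, ubiquitin ligases and other atrophy genes lay lower in the knockouts. It had 0 members past the adjusted threshold when the filter on low counts was used and 5 without it. Of 22 tested members of the FoxO, ubiquitin ligase and atrophy list, 17 were lower and 5 higher, with a median log2 fold change of -0.13. An unadjusted p under 0.05 was found for 7, all lower, and 4 had the knockouts wholly below the controls, beside 1.87% and 1.59% of all genes. The metallothioneins Mt1 and Mt2, which bind zinc and do not break down protein, are among the 5, the 7 and the 4. Trim63, the ligase MuRF1, which acts on myosin and other thick-filament proteins, was at 362, 261, 268 and 306 CPM in controls and 197, 227, 196 and 202 CPM in knockouts. Every knockout was below every control, and the control range was the wider (log2 fold change -0.54, SE 0.10, edgeR adjusted p = 0.257). Fbxo32, the ligase atrogin-1, was at 864, 673, 523 and 588 CPM against 417, 612, 489 and 521 CPM, with control 131 far above the rest and overlap between the groups (log2 fold change -0.38, SE 0.16). Foxo1, which drives both ligases, was at 19.3, 25.1, 32.8 and 35.9 CPM against 15.4, 18.0, 20.8 and 19.2 CPM, with only control 131 inside the knockout range (log2 fold change -0.63, SE 0.18, edgeR adjusted p = 0.907).

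The metallothioneins, small zinc-binding proteins that rise with glucocorticoids and in wasting muscle, were the list's other leading members. Mt1 was at 15.5, 12.9, 14.2 and 9.23 CPM in controls and 8.22, 5.37, 9.02 and 7.06 CPM in knockouts, and control 11 came close to knockout 960. Mt2 was at 3.79, 3.53, 3.22 and 3.20 CPM against 1.48, 1.51, 2.32 and 2.43 CPM, a wider gap. Their log2 fold changes were -0.81 (SE 0.18) and -0.81 (SE 0.19), with edgeR adjusted p of 0.515 and 0.555. The list's median ranged from -0.17 without mice 131 and 11 to -0.08 without mouse 139.

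The Trim63 promoter is printed because a FoxO site and a glucocorticoid half-site adjoin in it. It is from RefSeq (GRCm38.p6, plus strand, 250 bases before the start and 50 after), and capitals mark the half-site TGTTCT followed directly by TGTTTAC, the other strand of the FoxO site GTAAACA.
Trim63 (chr4:134314870-134315169): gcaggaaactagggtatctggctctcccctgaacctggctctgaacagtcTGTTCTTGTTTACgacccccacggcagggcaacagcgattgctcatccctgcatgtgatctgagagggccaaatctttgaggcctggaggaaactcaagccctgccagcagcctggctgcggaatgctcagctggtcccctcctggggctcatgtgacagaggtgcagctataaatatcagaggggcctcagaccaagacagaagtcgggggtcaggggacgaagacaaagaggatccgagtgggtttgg
The 2 matches begin 200 and 194 bases before the start. Searched on both strands, GTAAACA stands in 3.65% and TGTTCT in 19.0% of all promoter windows of this length.

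Genes known as targets of the glucocorticoid receptor lay lower almost throughout. Of 13 tested members, 12 were lower and 1 higher, and 3 had an unadjusted p under 0.05, all lower, beside 1.87% of all genes. The adjusted threshold was passed by 0 members (3 with no filter on low counts). The median was -0.19, and it was -0.30 without mouse 29, -0.29 without mouse 960 and -0.15 without knockout 958. With total-count scaling it was -0.11. Tsc22d3, which codes for the glucocorticoid-induced leucine zipper, was at 187, 151, 189 and 203 CPM in controls and 143, 116, 149 and 159 CPM in knockouts, where control 137 lay inside the knockout range. Fkbp5, a co-chaperone of the receptor, was at 52.4, 63.8, 75.9 and 51.8 CPM against 45.7, 33.8, 52.3 and 33.5 CPM, and Zbtb16, a zinc finger factor, at 134, 153, 166 and 198 CPM against 101, 122, 138 and 130 CPM. Their log2 fold changes were -0.37 (SE 0.11), -0.56 (SE 0.17) and -0.41 (SE 0.12), each with an edgeR adjusted p of 0.907. The factor gene Cebpd had groups that did not overlap, at 25.7 to 28.2 CPM against 12.9 to 25.3 CPM, with knockout 958 alone far below. Knockout 958 was the lowest library over the list as a whole, and the summed level of the list was 1601 to 1995 CPM among controls and 1290 to 1760 CPM among knockouts. The receptor gene itself, Nr3c1, had a log2 fold change of -0.19. No hormone level or time of sampling is given in the sources used here.

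Of 27 tested proteasome subunits, 26 were lower, by little each (median -0.13, range -0.29 to 0.17). The cap subunits Psmd2 and Psmd1 led, with Psmd2 at 242, 179, 164 and 180 CPM in controls and 150, 152, 155 and 170 CPM in knockouts. Control 131 held the highest value, its summed proteasome level was 2159 CPM beside 1589 to 1801 CPM in the other 7 mice, and without this mouse the median was -0.06. Of 19 autophagy and mitophagy genes 15 were lower, but their median of -0.02 was close to that of all genes and turned to 0.06 when libraries were scaled by total counts alone. Sqstm1, the cargo receptor p62, was the only one with an unadjusted p under 0.05, at 270 to 364 CPM among controls and 247 to 285 CPM among knockouts.

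**Figure D4:**
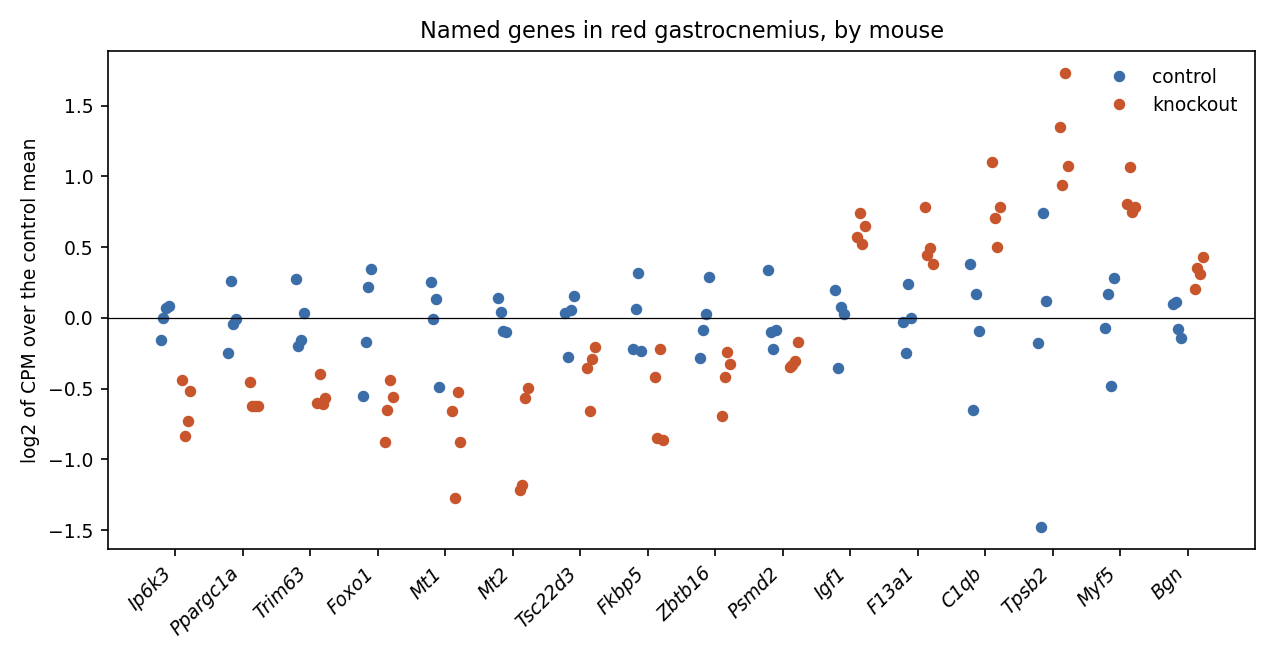
Log2 of CPM over the mean of the controls, by mouse, for 16 named genes of atrophy and protein breakdown, glucocorticoid response, growth, immune cells, muscle precursors and matrix. Points are single mice (n = 4 per genotype). None of these genes passed the adjusted threshold in edgeR with the filter on low counts, and the groups overlap for Foxo1, Tsc22d3, Fkbp5, Zbtb16 and Psmd2.

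Ppargc1a, which codes for PGC-1alpha, the coactivator of mitochondrial and slow-fibre genes, was at 60.9, 86.3, 70.0 and 71.6 CPM in the controls and at 52.8, 46.9, 46.9 and 46.8 CPM in the knockouts. All knockouts lay below all controls, and 3 of them at nearly the same level (log2 fold change -0.58, SE 0.10, edgeR adjusted p = 0.128). In fat its log2 fold change was 0.02 (SE 0.22), and the difference between tissues, -0.59 (SE 0.23), had an edgeR adjusted p of 0.665. Of 46 nuclear-encoded respiratory chain genes 44 were higher by a small amount (median 0.07), while 7 of 8 tested genes of the mitochondrial genome were lower (median -0.13, and 0.00 without control 137). The respiratory chain median was -0.00 without knockout 139 and 0.12 without knockout 29, and 0 of its members had an unadjusted p under 0.05. The wider list of PGC-1 and mitochondrial biogenesis had 14 of 20 members lower (median -0.07, and 0.00 with total-count scaling).

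Igf1 and Ip6k3, which act at opposite ends of growth signalling, were the leading genes of the insulin and IGF list. Igf1, the secreted growth factor that activates Akt in muscle, was at 14.02, 9.56, 12.9 and 12.5 CPM in controls and 18.2, 20.5, 17.5 and 19.2 CPM in knockouts. Ip6k3, an inositol phosphate kinase found mainly in muscle whose product restrains Akt, was at 21.03, 23.4, 24.6 and 24.8 CPM against 17.3, 13.1, 14.2 and 16.4 CPM. Neither pair of groups overlapped, and their log2 fold changes of 0.63 (SE 0.11) and -0.63 (SE 0.10) had edgeR adjusted p of 0.159 and 0.103. The other 25 tested members lay between -0.16 and 0.43, so that over the list 12 were higher and 15 lower (median -0.02, and 0.05 with total-count scaling). The receptors Igf1r and Insr, the adaptor Irs1 and the kinase Akt2 had log2 fold changes from -0.16 to 0.09.

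In carbohydrate use, single genes stood out more than the pathway did, with 14 of 23 members higher, 9 lower and a median of 0.02. Ppp1r3c, a subunit that directs protein phosphatase 1 to glycogen, was at 472, 305, 582 and 650 CPM against 404, 305, 220 and 264 CPM, with control 137 at the level of the knockouts. Pfkfb3, which makes the activator of phosphofructokinase, was at 172, 112, 62.7 and 125 CPM against 159, 444, 253 and 229 CPM, a log2 fold change of 1.21 (SE 0.42) with knockout 139 inside the control range. Pdk4, the kinase that blocks pyruvate entry into mitochondria, was at 962 to 1444 CPM among controls and 888 to 1130 CPM among knockouts (log2 fold change -0.36, SE 0.13). These 3 genes had edgeR adjusted p from 0.907 to 0.949.

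Slow-fibre genes lay higher in 3 of the 4 knockouts and lower in the fourth. Of 14 tested members 13 were higher and 1 lower, with a median log2 fold change of 0.52 and 0 past the adjusted threshold. The slow myosin Myh7 was at 1076, 1320, 1055 and 1238 CPM in controls and at 2003, 2102, 2108 and 931 CPM in knockouts. Knockouts 139, 958 and 960 were above every control and knockout 29 below every control. The calcium pump of slow fibres, Atp2a2, had the same order, at 362, 431, 416 and 477 CPM against 659, 782, 738 and 341 CPM, and so had the light chain Myl2, at 263, 337, 261 and 297 CPM against 573, 436, 489 and 245 CPM. Without mouse 29 the median was 0.74, and 6 members passed in edgeR: Myh7, Atp2a2, Myl2, Tnnc1, Tnnt1 and Tnni1, with log2 fold changes from 0.77 to 0.83. Fast-fibre genes were lower for 16 of 19 members by little (median -0.07, and 0.01 with total-count scaling). Actn3, the fast-fibre alpha-actinin, was at 6865, 5513, 5829 and 6176 CPM against 4894, 4973, 5173 and 6320 CPM, where knockout 29 again stood with the controls. The share of the red part in each dissected piece is not stated in the sources used here, and its bearing on fibre genes was not tested.

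Markers of macrophages, mast cells and antigen-presenting cells lay higher in knockout muscle. All 14 tested macrophage markers were higher (median 0.40), 5 with an unadjusted p under 0.05 and 3 with no overlap, beside 3.17% and 1.78% of all genes. C1qb, a chain of complement C1q, was at 3.86, 1.88, 3.32 and 2.77 CPM in controls and 6.33, 4.82, 4.18 and 5.08 CPM in knockouts. Csf1r, the receptor that macrophages need to survive, was at 10.9, 8.60, 13.04 and 10.6 CPM against 16.03, 16.1, 14.7 and 13.04 CPM, with knockout 29 at the level of control 138. F13a1, the clotting factor subunit made by resident macrophages, is outside that list and was named for its small p. Its level was 13.7, 11.8, 16.6 and 14.03 CPM against 24.2, 19.1, 19.7 and 18.3 CPM (log2 fold change 0.53, SE 0.12, edgeR adjusted p = 0.512). The summed level of the macrophage list was 72.5 to 113 CPM among controls and 109 to 138 CPM among knockouts, lowest in control 137, and without that mouse the median was 0.23.

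All 6 tested mast cell markers were higher (median 0.79), at very low levels. The tryptase gene Tpsb2 was at 0.70, 0.28, 1.32 and 0.86 CPM in controls and 2.01, 1.51, 2.62 and 1.66 CPM in knockouts, and the chymase gene Cma1 at 1.19, 0.23, 1.48 and 0.55 CPM against 2.48, 2.20, 2.27 and 1.48 CPM. The groups were apart for both, and control 137 was lowest in each. Summed over the list, levels were 3.47 to 10.6 CPM and 10.7 to 14.4 CPM, and the median went from 0.52 without mouse 137 to 1.20 without mouse 138. Of the genes of MHC class II, 7 of 7 were higher (median 0.44, and 0.28 without mouse 29), with H2-Ab1 at 7.15, 6.66, 9.61 and 7.57 CPM against 10.3, 12.5, 9.32 and 10.5 CPM. Among neutrophil and monocyte markers, Csf3r was at 0.18 to 0.56 CPM against 0.71 to 1.10 CPM and Ccr2 at 3.08 to 4.59 CPM against 3.98 to 6.28 CPM, and the defining neutrophil gene Ly6g was at or near 0 in both genotypes. T and NK cell markers were too low to test, with summed levels of 0.21 to 0.62 CPM among controls and 0.55 to 0.99 CPM among knockouts. None of the immune markers passed the adjusted threshold with the filter on low counts. With no filter 3 macrophage markers (C1qb, Csf1r and Lyz2) and 2 mast cell markers (Cma1 and Tpsb2) did (edgeR adjusted p from 0.00194 to 0.0133). As said above, those calls depend on the filter and are not read as support.

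Matrix and stromal genes lay in the same direction. Of 29 tested extracellular matrix genes 26 were higher (median 0.19), 6 with an unadjusted p under 0.05, beside 3.17% of all genes. Bgn, the proteoglycan biglycan, was at 20.3, 20.5, 18.0 and 17.2 CPM in controls and 21.9, 24.2, 23.5 and 25.5 CPM in knockouts, every knockout above every control (log2 fold change 0.33, SE 0.09, edgeR adjusted p = 0.867). Lamb1, a laminin chain of basement membranes, was at 27.0 to 33.2 CPM against 33.8 to 37.8 CPM. The fibrillar collagens Col1a1 and Col3a1 overlapped between the groups. Leaving out mouse 137 gave a median of 0.07 for the matrix list with 20 of 29 higher, and leaving out mouse 29 gave 0.08 with 23 of 29 higher. Markers of tendon and bone lay higher too, for 6 of 8 members (median 0.41, with 0.25 when mouse 137 and 0.27 when mouse 131 was left out), at summed levels of 150.8 to 233.6 CPM among controls and 200.4 to 262.4 CPM among knockouts. Control 137 was lowest in that sum as it was for macrophages and mast cells, and the part of tendon in the matrix result was not tested. All 13 markers of fibro-adipogenic progenitors, the stromal cells of muscle, were higher (median 0.14), with Fbln1 at 5.98 to 10.3 CPM against 8.63 to 14.2 CPM. With 1 mouse left out, their median went from 0.125 without mouse 139, with 11 of 13 higher, to 0.26 without mouse 131. Islr, expressed by the same kind of cell, is outside that list and was named for its small p. Its level was 12.3, 8.94, 10.1 and 9.23 CPM against 15.3, 16.1, 13.6 and 13.1 CPM (log2 fold change 0.52, SE 0.12, edgeR adjusted p = 0.512). Endothelial markers were higher for 11 of 12 members, with a median of 0.05 that was -0.05 without mice 131 and 11.

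Markers of fat and nerve moved with single mice and not with genotype. Adipoq, the adipocyte hormone adiponectin, was at 11.6, 2.28, 7.28 and 4.92 CPM in controls and 23.9, 2.38, 11.2 and 4.14 CPM in knockouts, and its log2 fold change of 0.66 (SE 0.84) became -0.14 without mouse 139. All 9 tested Schwann cell and nerve markers were higher, with a median of 0.73 that was -0.22 without mouse 960. Their summed level was 51.1 to 95.5 CPM among controls, 280.0 CPM in knockout 960 and 46.1 to 82.3 CPM in the other knockouts. Red blood cell genes were lower for 5 of 5 members (median -0.21), at summed levels of 99.7 to 205 CPM among controls and 69.6 to 217 CPM among knockouts, and the median was 0.01 without mouse 960. The part of these cells in other results was not tested.

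**Figure D5:**
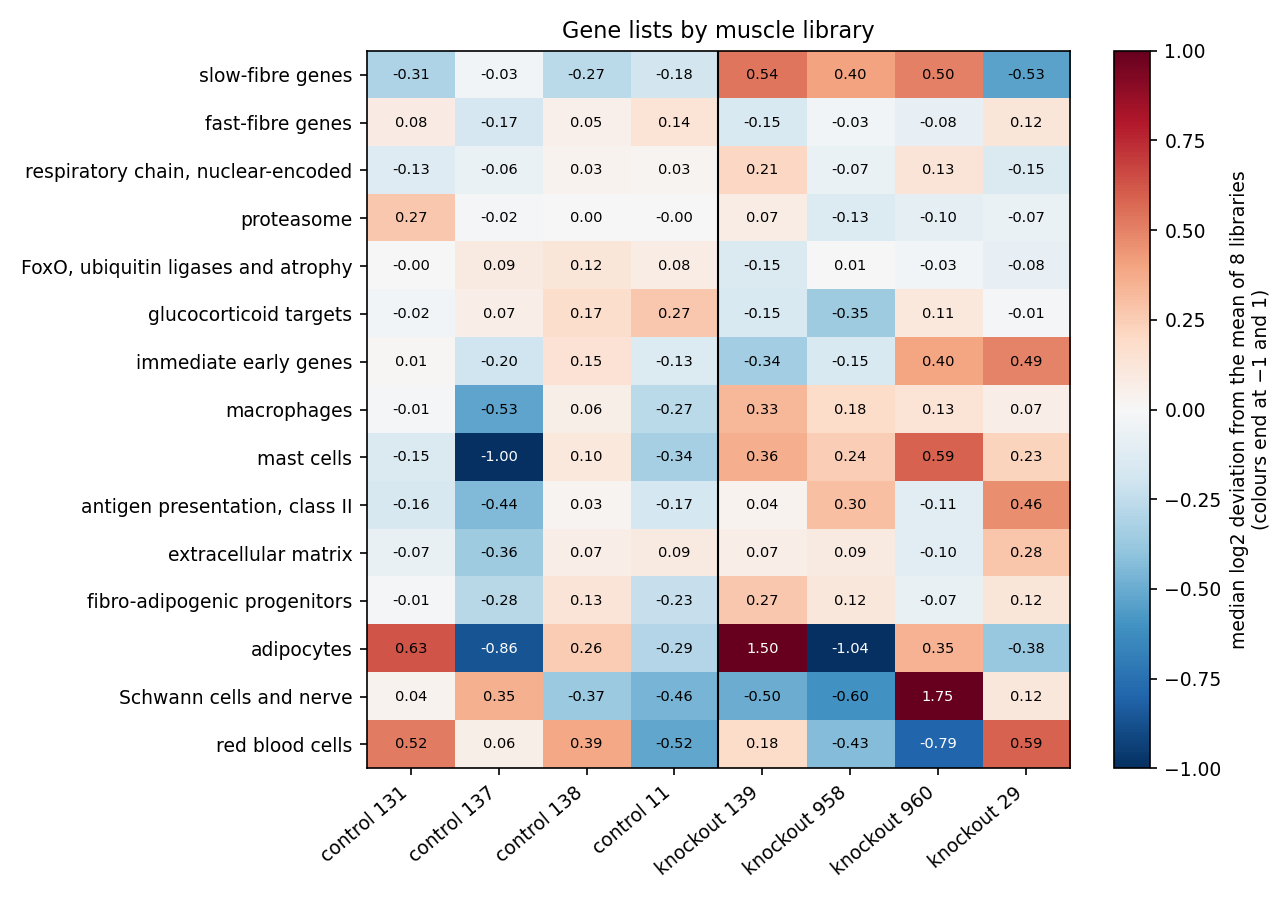
Median log2 deviation from the mean of the 8 muscle libraries over the tested members of 15 gene lists, by mouse (controls left of the line, knockouts right of it); colours end at −1 and 1. Macrophage and mast cell lists lie above 0 in all 4 knockouts and in control 138 (0.06 and 0.10), with knockout 29 at 0.07 for macrophages. Slow-fibre genes lie above 0 in 3 of the knockouts with mouse 29 at −0.53, and the Schwann cell list stands at 1.75 in mouse 960.

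Immediate early genes, which respond quickly to contraction, had 15 of 23 members higher (median 0.25) with large differences between mice. Ier2 was at 1.68, 2.16, 2.69 and 1.97 CPM in controls and 2.31, 3.58, 5.59 and 4.18 CPM in knockouts, and Junb, an AP-1 subunit, at 9.18, 6.77, 12.2 and 9.29 CPM against 13.2, 12.5, 21.1 and 16.5 CPM. Junb had groups apart and Ier2 did not, with log2 fold changes of 0.75 (SE 0.20) and 0.87 (SE 0.24) and an edgeR adjusted p of 0.907 for both. Knockouts 960 and 29 were the highest, and without mouse 29 the median of the list was 0.05. Among muscle precursor genes, Myf5, a factor of satellite cells, was at 0.77, 0.91, 0.58 and 0.98 CPM against 1.42, 1.70, 1.36 and 1.39 CPM with no overlap (log2 fold change 0.86, SE 0.24), and the embryonic myosin Myh3 at 4.84, 6.66, 5.28 and 4.98 CPM against 10.5, 10.5, 8.11 and 5.26 CPM. Over that list 6 of 13 members were higher and 7 lower.

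A few further genes led the ranking by p without belonging to a list, and 0 of them passed with the filter on low counts. Lower in every knockout than in every control were Ralgapa2, a subunit of the complex that switches off Ral GTPases, at 38.2, 40.9, 30.3 and 41.3 CPM against 21.6, 25.5, 24.9 and 27.7 CPM, and Tacc2, a coiled-coil protein, at 1028 to 1280 CPM against 743 to 862 CPM. Higher in every knockout were Cpeb2, a regulator of mRNA translation, at 13.7, 12.4, 10.6 and 10.2 CPM against 13.8, 18.9, 18.6 and 18.5 CPM, and the class IIa histone deacetylase gene Hdac9 at 12.9, 12.5, 10.1 and 11.997 CPM against 15.0, 18.7, 17.2 and 15.1 CPM. The log2 fold changes of these 4 were -0.59 (SE 0.11), -0.48 (SE 0.10), 0.59 (SE 0.12) and 0.48 (SE 0.11), with edgeR adjusted p from 0.159 to 0.512. With DESeq2, 9 genes passed in muscle: the pair on chromosome 11, Ip6k3, Ppargc1a, Ralgapa2, Trim63, Tacc2, Igf1 and CT010467.1. Ppargc1a also passed in edgeR without mouse 131, Ralgapa2 without mouse 138, and Ip6k3 in limma with quality weights. With no filter on low counts in edgeR, Ip6k3, Ppargc1a, Ralgapa2, Trim63, Igf1, Tacc2, Cpeb2 and Hdac9 all passed, as did F13a1, Islr and Azi2, with adjusted p from 1.28e-06 for Ppargc1a to 0.00647 for Hdac9 and Azi2.

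Whether the genotype effect differed between muscle and fat was tested over 17084 genes in all 16 libraries, and 0 passed in edgeR, with 1229 (7.19%) at an unadjusted p under 0.05 and 13 past the threshold with DESeq2. The fat library of control 138 stood apart, with Bgn at 249.7 CPM beside 119 to 140 CPM in the other control fat libraries, Fbln1 at 436.6 beside 52.2 to 105 CPM and Adipoq at 500.4 beside 2338 to 3193 CPM, so values are also given without it, an alternative chosen after these values were seen. Without it 3 genes passed (Stt3b, Filip1 and Camk2b), while 0 passed when both libraries of mouse 138 were left out. Several lists had the other sign in fat, a contrast that was tested per gene only. Macrophage markers, all higher in muscle, were higher in fat for 2 of 14 (1 without that library), extracellular matrix genes for 3 of 29 (4 without it) and fibro-adipogenic progenitor markers for 4 of 13 (3 without it). Bgn, at 0.33 in muscle, was at -0.66 in fat, a difference of 0.99 (SE 0.25) with an edgeR adjusted p of 0.653. Without the library of control 138, Bgn was at -0.37 in fat and the difference was 0.71 (SE 0.12, edgeR adjusted p = 0.0837). Fbln1, at -1.12 in fat, was at 0.01 without it. Glucocorticoid targets, 1 of 13 higher in muscle, had 8 of 13 higher in fat (7 without that library), though Tsc22d3 lay lower in both, at -0.37 and -0.62. Proteasome genes were lower in both tissues, for 26 of 27 in muscle and 25 of 27 in fat (26 without that library). Some leading genes of muscle had the same direction in fat without passing there: Gbp9 was at 0.85 (SE 0.10, edgeR adjusted p = 0.187), Ralgapa2 at -0.80 (SE 0.21), Osbpl10 at -1.07 (SE 0.37) and Mt2 at -0.96 (SE 0.34). For these 4 the effects in muscle and fat differed by -0.18, 0.21, -0.04 and 0.15, with edgeR adjusted p of 0.874 or more. Without the library of control 138, Gbp9 rose in fat (0.85, edgeR adjusted p = 0.0428).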

How the data were processed

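Total RNA of red gastrocnemius and visceral fat (average RIN 8.3) was depleted of ribosomal RNA and sequenced as stranded paired reads of 51 cycles, per the labels' protocols. The authors deposited 1 table of raw counts per gene; STAR 2.7.0f, featureCounts 1.6.3, DESeq2 1.22.2 and GRCm38 are named in the submitters' processing notes, and the strand setting and the handling of reads with several positions are not stated in the sources used here. Counts were tested with edgeR 4.0.16 in R 4.3.3 (TMM scaling, filterByExpr, robust quasi-likelihood test, Benjamini-Hochberg adjusted p under 0.05) over the 8 muscle libraries. CPM values use the TMM library sizes. The difference between tissues was fitted over all 16 libraries. The code was tested on simulated data. Permutation tests were exact and two-sided over 70 assignments, with a smallest possible p of 0.0286, and intervals of summed counts cover counting error only.

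Alternatives were other scalings and filters, DESeq2 1.42.0, limma 3.58.1 (voom), and leaving out each mouse or the 2 controls rich in ribosomal RNA. Leaving out the fat library of control 138 was added after the data were seen. The 2 tissues share subject numbers, so the mouse was tried as a block. Deviations of same-numbered libraries correlated at -0.02 to 0.05 in controls and 0.09 to 0.20 in knockouts over 17084 genes. A muscle library correlated best with the fat library of its own number for 1 control and for 4 knockouts.

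Named genes were Myd88, genes past the threshold, the 15 protein-coding genes per direction with the smallest p (mean of at least 1 CPM), the 4 members of each list with the smallest p and its most abundant member, genes within 500 kb of a gene past the threshold, and the 12 most variable genes of at least 5 CPM. Not all of them are described, and a few results that are withheld are not reported here. Stt3b, Filip1, Camk2b, CT010467.1, Tlr3, Nr3c1, Ly6g, the collagens, the troponins and the adaptors, kinases and receptors given as ranges were added after values were seen. The comparison, the members and the lists were chosen with earlier results of these data known, and no list was tested.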

Additional observations from a re-analysis of the deposited data

Results flagged for a closer look

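In 13 of 210 groups of 4 libraries examined (6.19%), 1 mouse lay far from the other 3: its gap to the nearest, divided by the group's range, was above Dixon's 95% critical value for 4 samples. Chance gives about 1 in 20 such groups. Knockout 139 was the mouse in question for Tgtp1 (ratio 1.0, its 1 count against 0 elsewhere), for Ppargc1a (0.977, 52.8 CPM against 46.8 to 46.9), for Cpeb2 (0.919, 13.8 CPM against 18.5 to 18.9), for the summed neuromuscular junction list (0.876, 206.5 CPM against 222.7 to 225.0) and for the summed smooth muscle list (0.902, 650.9 CPM against 636.6 to 638.0). Knockout 29 was low for Myh7 (0.91, 931 CPM against 2002 to 2108) and for the summed slow-fibre list (0.891, 2287 CPM against 4789 to 5096).

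Knockout 960 was high for the summed Schwann cell and nerve list (0.845, 280.0 CPM against 46.1 to 82.3). Among controls, mouse 138 was high for Tgtp2 (0.912, 3.64 CPM against 1.54 to 1.72) and mouse 11 low for 9930111J21Rik1 (0.834, 1.17 CPM against 1.82 to 1.95). Control 137 was low for the myeloid receptor gene Lilr4b (0.904, 0.854 CPM against 1.47 to 1.54) and for the summed fast-fibre list (0.833, 131000 CPM against 162400 to 168700), and control 131 for the summed NF-kB list (0.957, 314.1 CPM against 355.9 to 357.8).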

How the results depend on the processing

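The count of 2 changed genes in muscle was 80 with no filter on low counts, 1 when 4 libraries had to reach 1 CPM and 9 with DESeq2, and 1 to 10 when 1 mouse was left out (1 without 139, where Tgtp1 was lost, and 10 without 29). It was 3 with limma quality weights and without mouse 131 or 138. 9930111J21Rik2 and Tgtp1 passed in 21 and 19 settings. The count of 0 genes whose effect differed between tissues was 13 with DESeq2 and 3 without the fat library of control 138, a setting added after the data were seen; with the mouse as a replicate block it was 0, and 1078 genes had an unadjusted p under 0.05. Within muscle the genotypes are different mice, so no block applies.

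Some small differences changed sign. The log2 fold change of Tgtp2 was -0.031 with voom, -0.34 with quality weights, -0.18 without mice 131 and 11, and -0.22 to 0.48 with 1 mouse left out. The log2 fold change of 9930111J21Rik1 was -0.049 with quality weights, -0.12 without mice 131 and 11, and -0.090 to 0.190 with 1 mouse left out. The log2 fold change of Irgm1 was -0.00157 with RLE scaling, -0.00453 with DESeq2, -0.00226 with voom, -0.014 with quality weights, and -0.0401 to 0.0552 with 1 mouse left out. The log2 fold change of Adipoq was -0.12 with quality weights and -0.14 to 1.07 with 1 mouse left out. The cause was not tested.

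Scaling by total counts moved the median log2 fold change of all genes from 0.003 to 0.076 and the share of genes above 0 from 50.8% to 72.7%. Low counts limit Myd88 (31 to 65 counts per library), Tgtp1, the Toll-like receptors and the mast cell and neutrophil markers, among others.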

Other observations

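Tnfrsf10b, Lilr4b and Id1 had groups apart in muscle and belong to no list above. None passed in edgeR with the filter on low counts, and Lilr4b and Id1 did with no filter. Tnfrsf10b, a death receptor for the ligand TRAIL, was at 0.56, 0.80, 0.63 and 0.55 CPM in control muscle and 1.01, 1.42, 1.66 and 1.44 CPM in knockout muscle (log2 fold change 1.11, SE 0.26, edgeR adjusted p = 0.515). Lilr4b, an inhibitory receptor of myeloid cells, was at 1.47, 0.854, 1.48 and 1.54 CPM against 2.54, 2.84, 2.02 and 2.61 CPM (0.91, SE 0.22, edgeR adjusted p = 0.555), lowest in control 137 like the macrophage and mast cell markers. Id1, an inhibitor of basic helix-loop-helix factors that BMP signals raise, was at 5.89, 6.60, 5.07 and 5.60 CPM against 4.44, 2.75, 3.28 and 4.36 CPM (-0.65, SE 0.17, edgeR adjusted p = 0.783).

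Slc15a2, a peptide transporter gene, was among the most variable genes between mice and did not follow genotype. It was at 0.070, 28.4, 0.475 and 18.0 CPM in control muscle and 4.73, 0.229, 14.8 and 0.45 CPM in knockout muscle. In fat it was at 1.30, 29.4, 2.87 and 30.4 CPM and at 10.2, 2.49, 15.1 and 2.78 CPM. Mice 137, 11, 139 and 960 held the higher values in both tissues, so high and low levels went with the subject number. Each number also had a higher CPM in fat than in muscle, with each tissue scaled on its own.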
